A study of Mus musculus with 10 samples.

Results

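Neuronal differentiation genes were followed in adherent mouse neural stem cell cultures with and without the E147A change in SMCHD1, a chromatin protein with an ATPase domain that takes part in silencing the inactive X chromosome and some autosomal genes. The set holds 9 genes, Tubb3, Map2, Rbfox3, Stmn2, Snap25, Syt1, Nefl, Nefm and Elavl3, chosen by symbol from the 52632 genes of the count table. All 9 passed the filter on low counts, as did 17110 genes in all.

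The cultures came from cortices dissected at embryonic day 14.5 and were grown on laminin with EGF and basic FGF, both at 20 ng/mL. The labels give every embryo of all groups a Castaneus (Cast) father and a mother that was an F1 of 129 and C57. Near Tubb3, however, all 4 female libraries, and near most others of the 9 genes some of them, had almost no reads assigned to Cast, and male libraries have no allelic columns by which to check the cross. The groups were female Smchd1GFP-E147A/+; XistdeltaA/+ (called female E147A/+ here, 2 libraries from litters 1 and 2), female Smchd1+/+; XistdeltaA/+ (female +/+, 2 libraries, both from litter 3), male Smchd1GFP-E147A/+; XY (male E147A/+, 3 libraries, litters 1, 1 and 3) and male Smchd1+/+; XY (male +/+, 3 libraries, litters 4, 1 and 3). As written in the genotype, the E147A allele also carries a GFP tag, so the tag and the change cannot be told apart. All females, controls included, carried the XistdeltaA allele, which the labels say keeps the Cast X inactive. In the females no litter held both genotypes, so litter and genotype cannot be told apart there. The labels do not state that each library came from a separate embryo, so p-values measure the spread between these libraries.

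Neural stem cells held in EGF and FGF divide and keep most neuronal genes low, and a culture also holds some cells that have left the cycle and begun to differentiate. Tubb3, Stmn2 and Elavl3 are switched on early in newborn neurons. Rbfox3, the neurofilament genes and the synaptic genes rise as neurons mature, and REST, a repressor present in stem cells, holds many neuronal genes down by binding the RE1 element near them. In bulk libraries fewer neurons and less RNA per neuron cannot be told apart.

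Per the labels, stranded poly(A) libraries were sequenced as paired 80 bp reads. Total counts per library ran from 20648916 to 44519020. Levels are given as CPM, counts relative to library size after TMM scaling. For the genes of the set they rest on 5 counts at the lowest (Stmn2 in male +/+ replicate 3) and 31466 at the highest (Map2 in female E147A/+ replicate 2). Clustered on the 17101 tested genes outside the set, 3 libraries stood apart from the other 7: female E147A/+ replicate 2, female +/+ replicate 1 and male +/+ replicate 3, from litters 2, 3 and 3. They lay at 49.3 to 81.8 on the first principal component, which held 32.5% of the variance, and the other 7 lay at -3.59 or lower. With average linkage the clustering set apart male E147A/+ replicate 3 instead. Smchd1 itself stood at 94.2 to 128 CPM in the 5 E147A/+ libraries and at 122 to 192 in the 5 +/+ libraries; counts cannot show the point change. Stem cell and radial glia markers (12 genes, among them Nes, Sox2 and Fabp7) summed to 4988 to 7069 CPM over the libraries. Microglia markers summed to 0.348 to 2.80 CPM, with Aif1, Cx3cr1, C1qa and Tyrobp at 3 counts or fewer in each library.

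Promoter sequences are shown for 3 genes, Tubb3, Elavl3 and Syt1, chosen by their levels over the cultures after these were seen. Within the 7 libraries that clustered together Tubb3 and Elavl3 had a Pearson's r of 0.903 (permutation test, adjusted p = 0.114). Syt1 was highest in 3 libraries where Elavl3 was lowest. The part of the promoter letters in these patterns was not tested. The sequences come from the RefSeq table for GRCm38.p6, which held 6 promoters of 5 of the 9 genes. They run from 250 bases before to 50 bases after the annotated start, 5′ to 3′ on the gene's strand. Capitals mark the letters of an RE1 half-site, CAGCACC or GGACAG, here read on the opposite strand as GGTGCTG or CTGTCC, and in Elavl3 the TATA box TATAAA. The windows are chr8:123411303-123411602 (plus strand) for Tubb3, chr9:22051974-22052273 (minus strand) for Elavl3 and chr10:109010926-109011225 (minus strand) for Syt1.
Tubb3: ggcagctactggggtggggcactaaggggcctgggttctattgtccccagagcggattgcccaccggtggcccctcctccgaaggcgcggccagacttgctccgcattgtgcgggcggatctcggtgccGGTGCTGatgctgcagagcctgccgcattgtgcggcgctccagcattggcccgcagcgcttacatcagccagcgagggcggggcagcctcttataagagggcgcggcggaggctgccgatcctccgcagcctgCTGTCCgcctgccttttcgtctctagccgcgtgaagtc
Elavl3: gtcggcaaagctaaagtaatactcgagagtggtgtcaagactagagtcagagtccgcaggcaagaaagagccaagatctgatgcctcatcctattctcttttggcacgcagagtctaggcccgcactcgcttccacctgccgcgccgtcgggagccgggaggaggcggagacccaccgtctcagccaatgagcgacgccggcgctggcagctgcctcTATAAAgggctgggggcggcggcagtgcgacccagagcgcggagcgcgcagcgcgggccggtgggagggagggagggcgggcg
Syt1: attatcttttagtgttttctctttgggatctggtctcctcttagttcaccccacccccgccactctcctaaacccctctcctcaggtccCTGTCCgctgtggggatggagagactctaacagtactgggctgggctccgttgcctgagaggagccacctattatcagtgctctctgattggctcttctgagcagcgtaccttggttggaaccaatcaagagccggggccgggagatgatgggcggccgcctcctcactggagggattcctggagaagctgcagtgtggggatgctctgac

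The Tubb3 promoter held both half-sites, CAGCACC beginning at -121 and GGACAG beginning at 13, counted from the first transcribed base. These matches lie apart in the window, and a whole RE1 element was not searched for. The Syt1 window held GGACAG at -161 and the Elavl3 window held neither. Of all 32851 promoters in the table, 7.14% held CAGCACC and 22.2% held GGACAG on either strand. The Elavl3 window had TATAAA at -33, found in 13.6% of all promoters, and 2 E-boxes (CANNTG, the letters bound by basic helix-loop-helix factors such as the Neurog and Neurod proteins) at -117 and -43. An E-box was present in 72.3% of all promoters and in neither the Tubb3 nor the Syt1 window shown. Of the other promoters of the set, Map2 had 1 GGACAG and Rbfox3 had 2 E-boxes, and the other Syt1 promoter in the table (chr10:109009062-109009361, minus strand) had 3 E-boxes, at -249, -141 and -31. Such matches describe the letters and show no binding.

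The genes of the neuronal cytoskeleton did not all share a pattern over the cultures. Tubb3 (chr8:123411424-123422015, plus strand) encodes the neuronal beta-tubulin. It stood at 7.46 and 5.27 CPM in female E147A/+, at 5.57 and 20.5 in female +/+, at 14.0, 25.2 and 30.1 in male E147A/+ and at 20.0, 22.5 and 9.25 in male +/+. Its lowest level was in female E147A/+ replicate 2 and its highest in male E147A/+ replicate 3, a range of 5.71-fold, and the 4 groups overlapped apart from female E147A/+, whose libraries lay below all 6 male libraries. The group means were 6.37 ± 1.55 CPM in female E147A/+ (SD, n = 2) and 23.1 ± 8.26 in male E147A/+ (SD, n = 3), with both +/+ groups between them.

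Map2 (chr1:66175273-66442583, plus strand), a microtubule-associated protein of dendrites, had the smallest range of the set. It stood at 609 and 727 CPM in female E147A/+, at 612 and 740 in female +/+, at 632, 545 and 477 in male E147A/+ and at 568, 582 and 982 in male +/+. The highest library was 2.06 times the lowest, and all groups overlapped. Per kb of exon its median over the 10 libraries was 37.1 CPM, against 9.11 for Tubb3, 3.52 for Elavl3, 1.63 for Stmn2, 1.55 for Nefm, 1.42 for Nefl, 0.743 for Snap25, 0.602 for Syt1 and 0.36 for Rbfox3. On that scale Map2 stood clear of its neighbour, at 29.0 to 59.7 over the libraries against 2.82 to 16.1 for Tubb3, and every other pair of neighbours in this order overlapped.

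Stmn2 (chr3:8509360-8561606, plus strand), a regulator of microtubules in growth cones, had the widest range. It stood at 4.69 and 0.786 CPM in female E147A/+, at 0.255 and 13.1 in female +/+, at 9.86, 24.9 and 22.9 in male E147A/+ and at 8.45, 21.8 and 0.169 in male +/+. The 3 libraries that stood apart were the 3 lowest, with 34, 8 and 5 counts, and the other 7 lay between 4.69 and 24.9 CPM. The highest level was 148 times the lowest. Each of the 3 low libraries belonged to a different group, so within-group spread was large in 3 of the 4 groups: the mean was 19.2 ± 8.17 CPM in male E147A/+ (SD, n = 3), which held none of them, and 10.1 ± 10.9 in male +/+ (SD, n = 3).

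The neurofilament genes Nefl (chr14:68083863-68089095, plus strand) and Nefm (chr14:68082590-68124846, minus strand) encode the light and medium subunits of the axonal neurofilament. Nefm stood at 15.0 and 34.4 CPM in female E147A/+, at 28.9 and 6.73 in female +/+, at 8.01, 8.30 and 9.67 in male E147A/+ and at 5.73, 6.95 and 42.5 in male +/+. Here the same 3 libraries were the 3 highest, at 28.9 to 42.5 CPM against 5.73 to 15.0 in the others. Nefl stood at 4.99 and 11.2 CPM in female E147A/+, at 7.80 and 3.54 in female +/+, at 4.39, 3.18 and 8.24 in male E147A/+ and at 4.62, 4.27 and 12.8 in male +/+. One pair of neighbours in its order of levels crossed the split: male E147A/+ replicate 3 (8.24 CPM) stood above female +/+ replicate 1 (7.80 CPM). In the annotation the genes lie on opposite strands and share 1108 exonic bases, of 3380 in Nefl and 5782 in Nefm. Whether the counting used strand is not given in the sources used here, so the split of reads between them is uncertain. The ratio of Nefm to Nefl counts ran from 1.17 to 3.71 over the libraries.

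The synaptic genes differed in the 3 libraries that stood apart. Snap25 (chr2:136713453-136782428, plus strand), a plasma membrane SNARE protein needed for vesicle fusion, stood at 4.16 and 4.74 CPM in female E147A/+, at 2.83 and 7.60 in female +/+, at 5.36, 11.1 and 8.71 in male E147A/+ and at 3.76, 6.20 and 4.52 in male +/+. Syt1 (chr10:108497650-109010982, minus strand), the calcium sensor for fast transmitter release, stood at 2.82 and 22.5 CPM in female E147A/+, at 21.7 and 4.37 in female +/+, at 3.40, 4.79 and 6.78 in male E147A/+ and at 1.79, 5.26 and 33.4 in male +/+. The 3 libraries set apart were the highest for Syt1, at 21.7 to 33.4 CPM against 1.79 to 6.78, and they lay at 2.83 to 4.74 CPM for Snap25, within the lower part of its range. The highest Syt1 level was 18.6 times the lowest.

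The RNA-binding proteins differed from each other, with Elavl3 low in the same libraries as Stmn2. Elavl3 (chr9:22015005-22052023, minus strand), a neuronal Hu protein that stabilises messenger RNAs, stood at 18.8 and 14.2 CPM in female E147A/+, at 8.34 and 26.1 in female +/+, at 22.3, 34.2 and 42.7 in male E147A/+ and at 26.8, 27.1 and 15.3 in male +/+. Its 3 lowest libraries were the 3 that stood apart, at 8.34 to 15.3 CPM against 18.8 to 42.7. Rbfox3 (chr11:118489762-118911597, minus strand), the splicing factor known as the antigen NeuN, stood at 1.85 and 8.25 CPM in female E147A/+, at 0.764 and 1.52 in female +/+, at 2.68, 2.41 and 2.33 in male E147A/+ and at 1.86, 2.44 and 0.675 in male +/+. Of the 3 libraries, female E147A/+ replicate 2 had the highest Rbfox3 level of all and female +/+ replicate 1 and male +/+ replicate 3 the 2 lowest, so this gene split them.

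In the count of patterns, 2 of the 9 genes (Stmn2, Elavl3) had the 3 libraries as their lowest and 2 of 9 (Syt1, Nefm) as their highest. Over all tested genes the same was true of 7.12% and 7.11%. The libraries were grouped by other genes of the same cells, so these counts are a description and carry no test.

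**Figure D1:**
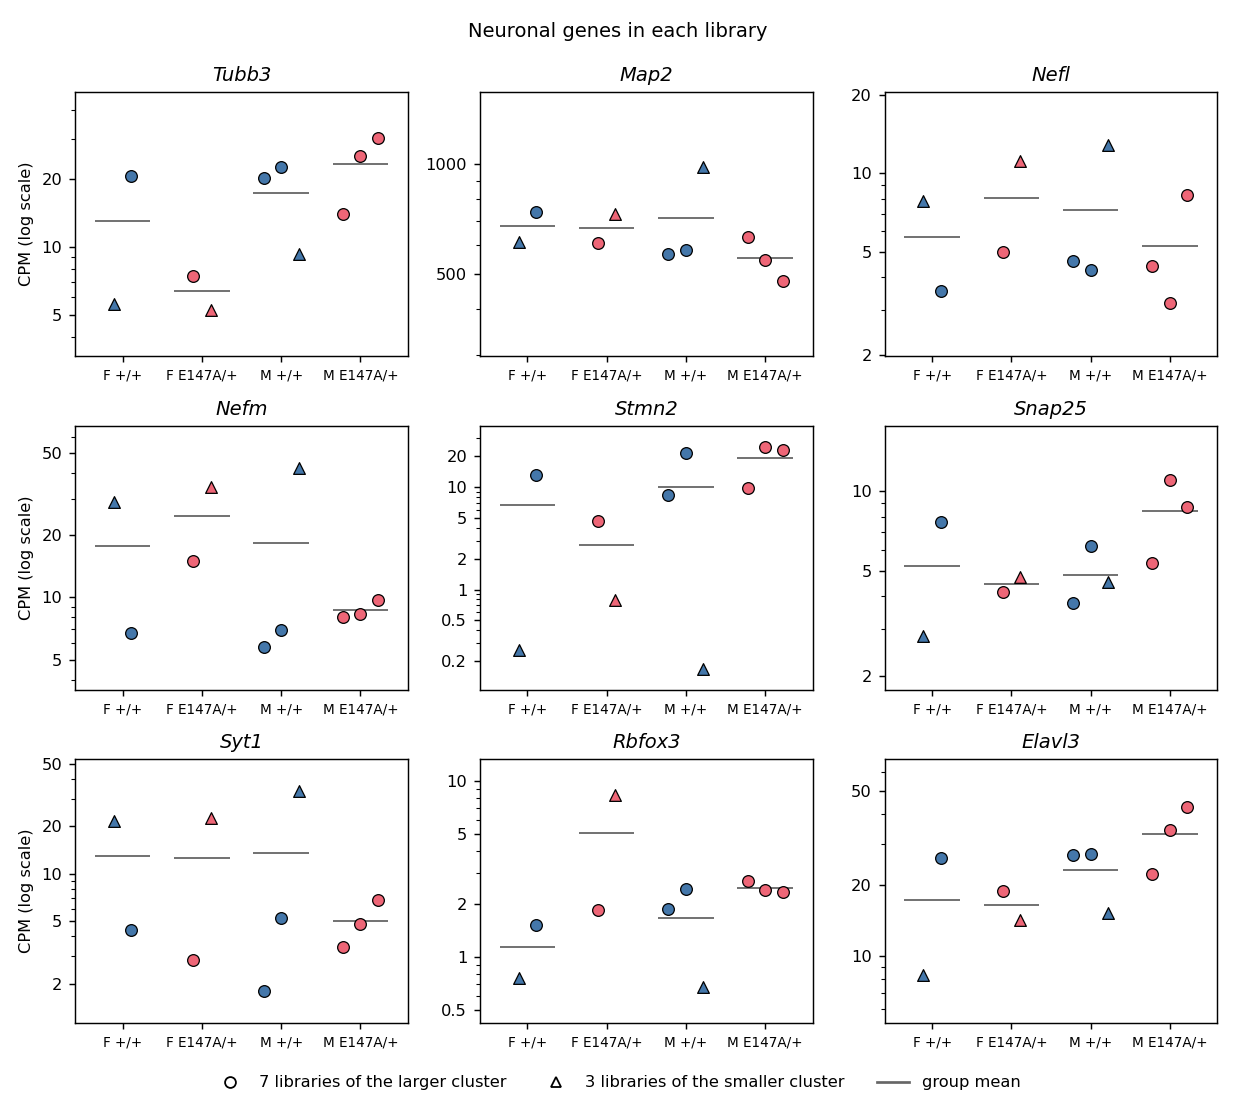
Level of each of the 9 genes in CPM (log scale) in the 10 libraries by sex (F, M) and genotype; points are libraries, triangles the 3 libraries that stood apart, blue +/+ and red E147A/+, and the line is the arithmetic group mean. For Stmn2 the triangles sit at 0.169 to 0.786 CPM, below all circles, and for Syt1 at 21.7 to 33.4 CPM, above all circles.

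Other neuronal genes, from 5 lists of known neuronal genes and their repressors, were set beside the 9. Of the 14 tested proneural and neuronal transcription factors, 7 had the 3 libraries as their lowest and 0 as their highest: Neurog2, Neurod2, Neurod6, Myt1l, Tbr1, Eomes and Bcl11b. Neurog2, Neurod2, Neurod6, Tbr1 and Eomes were all under 0.35 CPM in the 3 libraries and passed the filter through the others, so for these genes a low rank there was partly set by the filter and the count supports nothing about the list. Neurod2, a driver of cortical excitatory neuron differentiation, was at 0 to 0.0462 CPM in the 3 libraries and at 0.716 to 4.41 in the other 7. Eomes, a factor of intermediate progenitors, was at 0.0462 to 0.0675 against 0.0804 at the lowest of the others, a difference of a few counts. Tbr1, a factor of early deep-layer cortical neurons, was at 0.0675 to 0.347 against 1.17 to 5.77 CPM. Neurod6, of the same excitatory lineage, was at 0.0318 to 0.169 against 0.947 to 6.96 CPM.

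The tested genes of all these lists, markers included, were among those that grouped the libraries, so the counts are descriptions and carry no test. Over all tested genes the 3 libraries were the lowest for 7.12% and the highest for 7.11%. Of the 13 tested genes of the cytoskeleton and growth cone, 4 were lowest in the 3 libraries (Dcx, Mapt, Kif5a, Kif5c) and 0 highest. Mapt, which encodes tau, was at 5.70 to 7.05 CPM in the 3 and at 26.6 to 78.0 in the others. Gap43, a growth cone protein, overlapped, at 108 to 312 CPM in the 3 and 21.9 to 111 in the others. Of the 20 genes of synaptic vesicles and release, 3 were lowest (Syngr3, Slc17a6, Slc17a7) and 1 highest (Cplx2). The vesicular glutamate transporter gene Slc17a6 had 0 counts in the 3 libraries and stood at 0.348 to 1.73 CPM in the others. It, Slc17a7 and the RNA-binding gene Rbfox1 (0 to 0.169 CPM in the 3) also passed the filter through the libraries where they are higher. Of the 10 RNA-binding proteins, 2 were lowest (Rbfox1, Celf4) and 0 highest. Among the 11 repressors of neuronal genes, 0 were lowest and 3 highest (Hdac1, Ehmt2, Ptbp1), of which Ehmt2 was at 210.3 CPM at the lowest against 210.2 at the highest of the others; Ptbp1, a splicing repressor that stem cells express, was at 351 to 389 CPM in the 3 libraries and at 220 to 313 in the others. Rest was at 41.8 to 47.4 CPM in the 3 and at 36.9 to 55.4 in the others. Of the 12 stem cell and radial glia markers, 2 were highest in the 3 libraries (Nes at 959 to 1125 and Fabp7 at 1271 to 1972 CPM), 1 was lowest (Msi1, at 31.8 to 38.1 against 41.3 to 59.4 CPM) and the others overlapped. The part of these levels in the patterns of the 9 genes was not tested. Gad2 and Lhx6, of 8 tested GABAergic and ventral markers, were lowest there (Lhx6 at 0 to 0.0231 CPM against 0.0804 at the lowest of the others, a difference of a few counts). Both passed the filter through the libraries where they are higher, with Gad2 at 0.0675 to 0.318 CPM in the 3. Their low rank was thus partly set by the filter. The list summed to 30.0 to 52.1 CPM in the 3 libraries and 38.6 to 89.6 in the others.

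**Figure D2:**
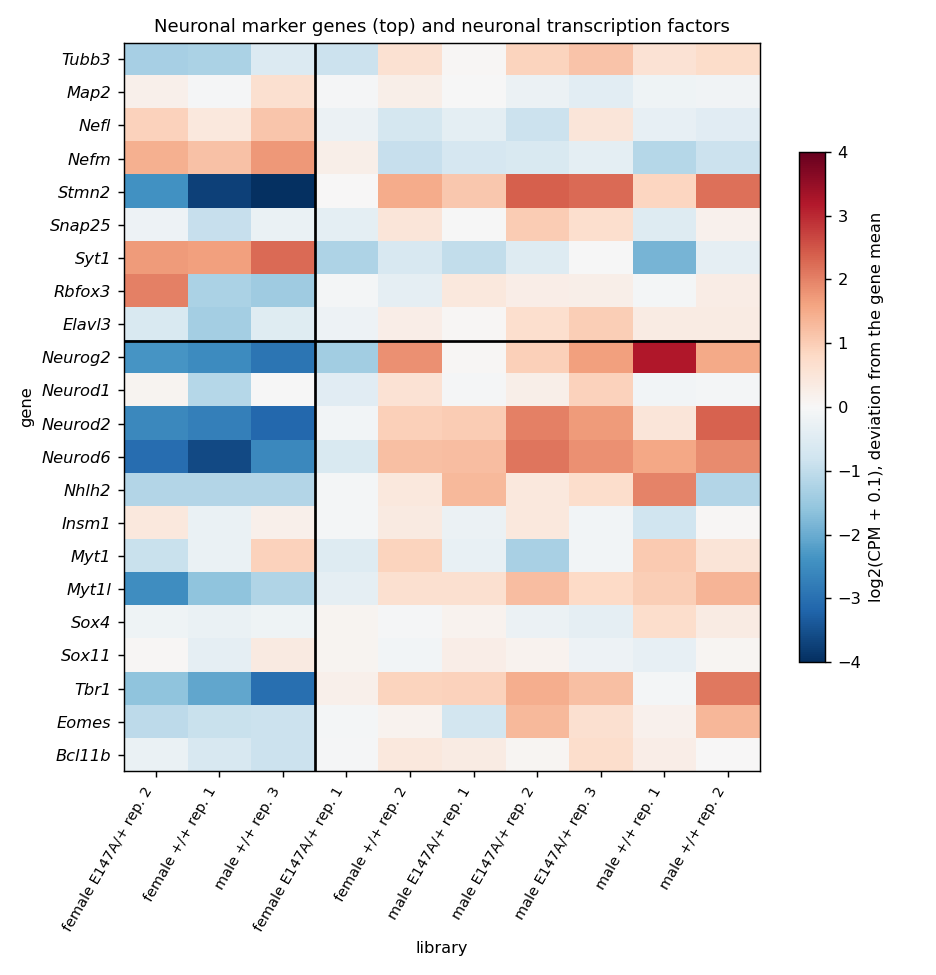
Deviation of log2(CPM + 0.1) from the mean of each gene over the 10 libraries, for the 9 genes (above the line) and tested proneural and neuronal transcription factors of the list; red is above and blue below the gene's mean, and the vertical line parts the 3 libraries that stood apart from the other 7. Stmn2, Neurod2, Neurod6 and Tbr1 are blue in all 3, while Syt1 and Nefm are red.

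The E147A genotype moved none of the 9 genes past the threshold in either sex. In females, 0 of 9 were called by edgeR's quasi-likelihood test at a Benjamini-Hochberg adjusted p under 0.05, against 0.0117% of the 17110 tested genes (2 genes, with 746 at an unadjusted p under 0.05). In males 0 of 9 were called against 0.0234% of all (4 genes, with 589 unadjusted), and over both sexes 0 of 9 against 0.0818% (14 genes, with 1010 unadjusted). At an unadjusted p under 0.05 stood 1 of the 9 in females (Rbfox3), 0 in males and 1 over both sexes (Rbfox3). DESeq2 and limma-voom also called 0 of the 9 in each of these comparisons. With so few genes called over the whole table, a count of 0 among 9 is near the background.

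In females the median log2 fold change of the 9 genes, E147A/+ over +/+, was -0.04, against -0.01 over all tested genes; 3 of the 9 lay above 0, as did 48.8% of all. Rbfox3 had the largest difference, a log2 fold change of 2.14 (SE 0.78, edgeR adjusted p = 0.964), with both E147A/+ libraries (1.85 and 8.25 CPM) above both +/+ libraries (0.764 and 1.52 CPM). It was the 1 gene of the 9 whose female groups did not overlap; with 2 libraries against 2, 21.8% of all tested genes were separated with E147A/+ higher and 19.3% with E147A/+ lower. Without female E147A/+ replicate 2 the Rbfox3 fold change was 0.70, and with litter as a covariate it was -0.11. The litter fit draws its litter terms from the male libraries of litters 1 and 3, and female E147A/+ replicate 2, the sole library of litter 2, adds nothing to the fold change there. Tubb3, next by p, was at -1.03 (SE 0.62, edgeR adjusted p = 0.964), which became 0.19 without female +/+ replicate 2. The Stmn2 value of -1.29 (SE 1.69) became 3.41 without that same library, so neither direction was held by all libraries. The interval of 2 standard errors ran from -4.67 to 2.09 for Stmn2 and from -0.59 to 0.56 for Map2, so changes of several fold lie inside the interval of Stmn2 and not inside that of Map2.

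In males the median of the 9 genes was 0.42, against -0.02 over all tested genes, with 5 of 9 above 0 and 47.3% of all. Snap25 had the lowest p, a log2 fold change of 0.80 (SE 0.42, edgeR adjusted p = 1.00), from 5.36, 11.1 and 8.71 CPM in E147A/+ and 3.76, 6.20 and 4.52 in +/+. Syt1 stood at -1.44 (SE 1.06), Nefm at -1.09 (SE 0.77) and Nefl at -0.46 (SE 0.57). These 3 negative values became 0.51, 0.45 and 0.24 once the libraries that stood apart, of which male +/+ replicate 3 is the male one, were left out. Stmn2 was at 0.93 (SE 1.36), Tubb3 at 0.42 (SE 0.50), Elavl3 at 0.52 (SE 0.42), Rbfox3 at 0.58 (SE 0.62) and Map2 at -0.36 (SE 0.23). Without male +/+ replicate 3 they were at 0.35, 0.12, 0.29, 0.20 and -0.06 in the same order. No gene of the 9 had male groups that did not overlap; over all tested genes 3.2% were separated with E147A/+ higher and 3.96% with it lower.

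Litters 1 and 3 held male libraries of both genotypes. For Stmn2 the difference E147A/+ minus +/+ in log2 CPM was -0.47 in litter 1 (2 libraries against 1) and 6.65 in litter 3 (1 against 1). The litter 3 value sets male E147A/+ replicate 3 against male +/+ replicate 3, the low library. Tubb3 gave -0.26 and 1.70, Elavl3 0.03 and 1.47 and Syt1 -0.38 and -2.29. In litter 1, where no library stood apart, all 9 differences lay between -0.47 and 0.31. These single differences have no replicate check.

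Over both sexes Rbfox3 again differed most, with a log2 fold change of 1.36 (SE 0.49, edgeR adjusted p = 0.772). It was 0.65 without female E147A/+ replicate 2, 0.32 with litter as a covariate and 0.24 without the 3 libraries that stood apart. Syt1 was at -0.74 (SE 0.82) and the other 7 genes lay between -0.31 and 0.28. The sex by genotype interaction, the female minus the male effect, called 0 of 9 genes and 0 of all tested genes, with 314 of all at an unadjusted p under 0.05 and 2 called by DESeq2. Among the 9 it had its lowest p for Tubb3 (-1.45, SE 0.80, edgeR adjusted p = 0.999); for Rbfox3 the difference was 1.56 (SE 0.98) and for Stmn2 -2.22 (SE 2.17). Without female +/+ replicate 2 the Tubb3 difference was -0.23 and that of Stmn2 2.48. The Rbfox3 difference was 0.11 without female E147A/+ replicate 2 and -0.84 with litter as a covariate.

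**Figure D3:**
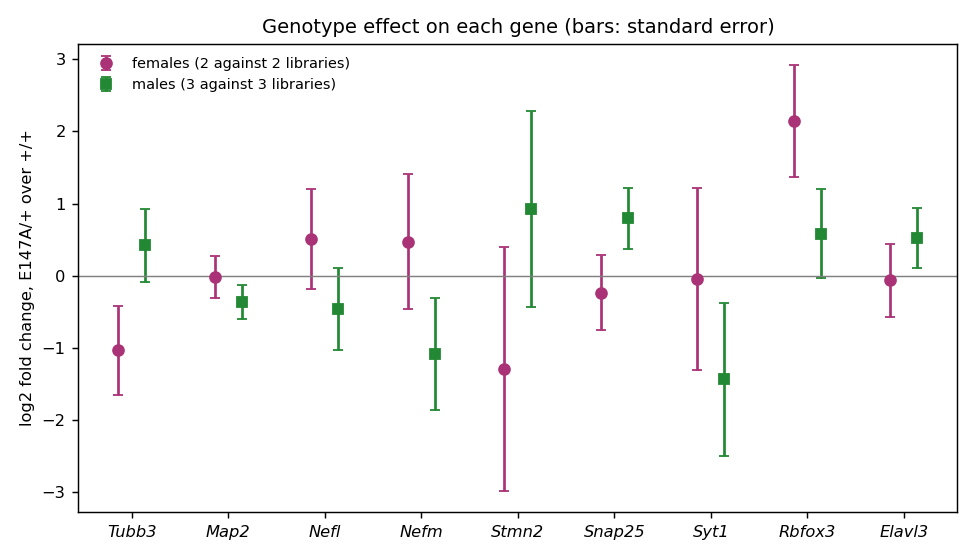
Log2 fold change of each of the 9 genes, E147A/+ over +/+, in females (circles, 2 against 2 libraries) and males (squares, 3 against 3), with bars of 1 standard error from edgeR. Rbfox3 in females stands farthest above 0 at 2.14 and Syt1 in males farthest below at -1.44; the Stmn2 bars are the longest.

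Of the 68 tested genes on the 5 neuronal lists, edgeR called 0 in each sex and 0 in the fit of both, with 6, 3 and 5 at an unadjusted p under 0.05 for females, males and both; other tools were not tabulated for the lists. The 2 genes of lowest unadjusted p over both sexes were named from each list. Myt1, a zinc finger factor expressed in differentiating neurons and in oligodendrocyte progenitors, had a log2 fold change of -1.23 (SE 0.29, edgeR adjusted p = 0.408), at -1.12 in females and -1.33 in males. In males Myt1 stood at 24.9, 12.3 and 28.1 CPM in E147A/+ and 63.5, 43.3 and 57.0 in +/+, with no overlap, and in females at 21.2 and 16.4 against 25.3 and 56.5, again with none. Over all tested genes, 3.96% were separated with E147A/+ lower in males and 19.3% in females. Of the 9 tested oligodendrocyte lineage markers, 1 was called lower over both sexes: Gpr17, a receptor of committed progenitors, at -4.98 (SE 0.65, edgeR adjusted p = 0.0249). Gpr17 stood at 0 to 0.134 CPM in the E147A/+ libraries and at 0.955 to 4.62 in the +/+ libraries, through which it passed the filter. Its call was thus partly set by the filter, and a fold change over levels so near 0 cannot be read as an exact value. The progenitor markers Pdgfra and Sox10 were at -2.38 (SE 0.48, edgeR adjusted p = 0.249) and -2.29 (SE 0.76, edgeR adjusted p = 0.727), and the median of the list was -0.30. The summed level of the list was 1383 to 2042 CPM in the E147A/+ libraries and 1929 to 2063 in the +/+ libraries, and its part in the Myt1 value was not tested. Neurog2 was at -2.25 (SE 1.24). Srrm4, a neuronal splicing activator, was at 0.91 (SE 0.31, edgeR adjusted p = 0.738) and Celf5 at 0.39 (SE 0.23). The vesicle SNARE gene Vamp2 was at 0.62 (SE 0.24) and its partner Stx1a at 0.63 (SE 0.25), both with an edgeR adjusted p over 0.78. Dpysl3 (0.20, SE 0.17) and Prph (0.76, SE 0.78) came from the cytoskeleton list, and Rcor2 (0.63, SE 0.29) and Rest (0.18, SE 0.13) from the repressors. The list medians over both sexes were -0.03 for the cytoskeleton, 0.22 for synaptic release, -0.16 for the RNA-binding proteins, -0.13 for the transcription factors and -0.004 for the repressors, against -0.01 for all tested genes.

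Covariation over cultures was read within the 7 libraries that clustered together, since a pooled correlation mixes the separate clusters. They come from 3 litters (4, 2 and 1 libraries) and all 4 groups. Pearson's r and Spearman's rho of log2 CPM were computed for the 36 pairs of the 9 genes with permutation tests, and 0 pairs passed an adjusted p of 0.05. For r, 6 pairs had an unadjusted permutation p under 0.05, and the lowest adjusted p was 0.114. For rho the lowest adjusted permutation p was 0.081, for Tubb3 with Stmn2, Tubb3 with Elavl3 and Stmn2 with Snap25. In 22 of the 36 pairs r was above 0.

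Tubb3 and Elavl3 had the highest r, 0.903 (permutation p = 0.00635, adjusted 0.114; rho = 0.964, permutation p = 0.00278), and r was 0.906 without the 2 libraries farthest from the Tubb3 median. Tubb3 and Stmn2 followed with r = 0.896 (permutation p = 0.00397, adjusted 0.114; rho = 0.929, permutation p = 0.00675) and 0.731 without the 2 farthest. Both relations kept their sign in deviations from litter means, at 0.882 and 0.997. Stmn2 and Snap25 gave r = 0.844 (permutation p = 0.0204, adjusted 0.147; rho = 0.929) and Stmn2 and Elavl3 r = 0.840 (permutation p = 0.0187, adjusted 0.147; rho = 0.857). The remaining pairs of these 4 genes gave r = 0.668 (Tubb3 and Snap25, permutation p = 0.0933) and r = 0.730 (Snap25 and Elavl3, permutation p = 0.0597). Of the 7 cultures, male E147A/+ replicates 2 and 3 had the highest levels of all 4 genes, and female E147A/+ replicate 1 the lowest of Tubb3, Stmn2 and Elavl3.

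Stmn2 and Syt1 rose together within the 7, with r = 0.793 (permutation p = 0.03, adjusted 0.180; rho = 0.857) and 0.911 without the 2 farthest. The 3 libraries that stood apart had the opposite pairing, with the lowest Stmn2 and the highest Syt1 levels of all 10. Snap25 and Syt1 gave r = 0.833 within the 7 (permutation p = 0.019, adjusted 0.147), but -0.25 over all 10 libraries and 0.0229 in the 6 males. The neurofilament pair Nefl and Nefm, which share exonic bases, gave r = 0.356 (permutation p = 0.391, adjusted 0.760; rho = 0.393), and Map2 had a negative r with each of the other 8 genes, between -0.675 (Elavl3) and -0.185 (Nefm), none past the threshold. Without the 2 farthest libraries the sign turned for Nefl (0.670), Nefm (0.393) and Rbfox3 (0.163), so these 3 relations rest on those libraries. Over all 10 libraries the r of Map2 was positive with Syt1 (0.572), Nefl (0.458) and Nefm (0.605) and negative with the other genes.

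**Figure D4:**
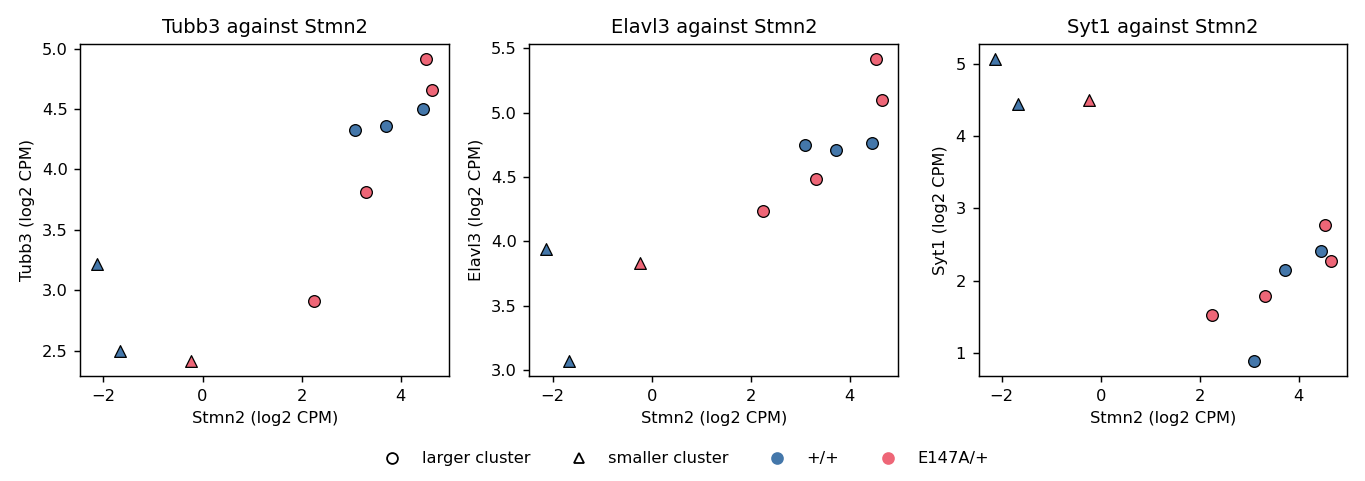
Log2 CPM of Tubb3, Elavl3 and Syt1 against that of Stmn2 in the 10 libraries; circles are the 7 libraries of the larger cluster, triangles the 3 that stood apart, blue +/+ and red E147A/+. Within the circles all 3 genes rise with Stmn2 (r = 0.896, 0.840 and 0.793), and in the Syt1 panel the triangles lie at the upper left.

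The genes outside the set whose log2 CPM over the 10 libraries was most like the mean z-score of the 9 were Txn-ps1 (r = 0.890), Gm8199 (0.855), Scg3 (0.847), Spryd7 (0.847), Mmp24 (0.845), Ccdc113 (0.831), Mypn (0.831), Rangrf (0.820), Neurod1 (0.820) and Gm16364 (0.814). That mean averages genes of opposite pattern, and none of these 10 had the 3 libraries wholly apart: Scg3 was at 5.95 to 19.4 CPM in the 3 and 6.54 to 19.2 in the others. Stmn2 and Syt1 were therefore also used singly, a step chosen after their values were seen. Most like Stmn2 were Elmod1 (r = 0.993), Sez6l2 (0.992), Chd3 (0.989), Neurod2 (0.989) and Slc17a7 (0.984). Within the 7 libraries their r was 0.914, 0.942, 0.934, 0.955 and 0.899. In the 3 libraries Elmod1 (0 to 0.0925 CPM), Neurod2 (0 to 0.0462) and Slc17a7 (0.0675 to 0.231) were near 0. These genes passed the filter through the other libraries, so their r over all 10 rests in part on levels near 0. Most like Syt1 were Acsl5 (0.965), Psmc2 (0.963), Ctsk (0.962), Ifrd1 (0.955) and Ywhah (0.954), with 0.867, 0.853, 0.680, 0.950 and 0.645 within the 7. These r are descriptions over points that share litters and clusters.

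In the 4 female libraries the deposited table also assigns reads to the 129 or the Cast allele. With at least 20 allelic reads, 28 of the 36 combinations of gene and library gave a Cast share, and Stmn2 had at most 1 allelic read in any. Shares carry 95% Wilson intervals, which cover counting error only, and stand beside the median share of genes within 5 Mb in the same library. The labels give every embryo a Cast father, yet those regional medians were near 0 in some libraries and near 50% in others for the same region; the cause was not tested.

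Map2 had the most allelic reads, 6703 to 10155 a library. Its Cast share was 23.1% (22.2 to 24.0) and 23.5% (22.7 to 24.4) in the E147A/+ libraries and 43.5% (42.3 to 44.7) and 23.4% (22.5 to 24.3) in female +/+. Its neighbours had medians of 0.702%, 1.21%, 48.3% and 2.08% in the same order. The 3 lower Map2 shares thus stood above their regional medians, with 85.7% to 92.9% of the neighbours below them. In female +/+ replicate 1 the Map2 share stood below its own median, with 37.0% of the neighbours below the share.

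Snap25 showed a like picture on fewer reads. Its share was 44.9% (31.9 to 58.7, 49 reads) and 18.8% (11.4 to 29.6, 69 reads) in the E147A/+ libraries and 33.3% (18.6 to 52.2, 27 reads) and 21.6% (14.6 to 30.8, 97 reads) in female +/+, beside medians of 51.3%, 0.356%, 52.2% and 0.615%. For Snap25 in female E147A/+ replicate 1 the interval held the regional median. Both genes lay above the median where the region was near 0 and below it where the region was near 50%. The neurofilament genes also lay below it where the region was near 50%, and not above it where the region was near 0. Nefm had 22.4% (18.6 to 26.6) in female E147A/+ replicate 2 and 26.1% (20.6 to 32.4) in female +/+ replicate 1, against medians of 50% and 48.4%. Nefl had 25% (16.8 to 35.5) and 7.27% (2.86 to 17.3) in these libraries, against 50.1% and 48.6%. In the other libraries Nefm was at 0.602% (0.106 to 3.33) and at 0 of 69 reads, which allows a share of up to 4.35%, and Nefl at 0 of 36 reads in female E147A/+ replicate 1, which allows up to 8.33%.

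For Elavl3 the shares were near 50% or near 0 where the region was, although in female E147A/+ replicate 2 the interval lay just above the median and 86.7% of the neighbours below the share. They were 43.0% (34.9 to 51.4) and 57.3% (47.6 to 66.4) in female E147A/+ beside medians of 47.8% and 47.3%, and 0 of 44 reads (a share of up to 6.82% allowed) and 0.546% (0.0965 to 3.03) in female +/+ beside 0.481% and 0.406%. Syt1 stood at 8.16% (3.22 to 19.2) and 50.3% (45.0 to 55.6) in the E147A/+ libraries and at 41.8% (35.2 to 48.7) and 46.8% (33.3 to 60.8) in female +/+, beside 0.129%, 51.7%, 48.9% and 49.8%. Tubb3 had 0 Cast reads in each library, of 36 and 23 in the E147A/+ libraries and 13 and 80 in female +/+, in a region with medians of 0.167% to 0.396%; 80 reads allow a share of up to 3.75%. These limits for a count of 0 are 3 reads of the total and are lower than the upper Wilson bounds, which were 4.58% for Tubb3 on 80 reads, 5.27% for Nefm, 9.64% for Nefl and 8.03% for Elavl3. Rbfox3 had 1 Cast read of 29 and 0 of 128 in female E147A/+, with total counts of 80 and 357, and its region had medians of 0.283% and 0.136%. In female +/+, under the minimum of reads for a share, it had 0 Cast reads of 9 and 10 of 18, in regions with medians of 2.10% and 45%. Since regional medians differed between libraries of 1 genotype, and with 2 libraries a group, no genotype comparison of shares was made.

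**Figure D5:**
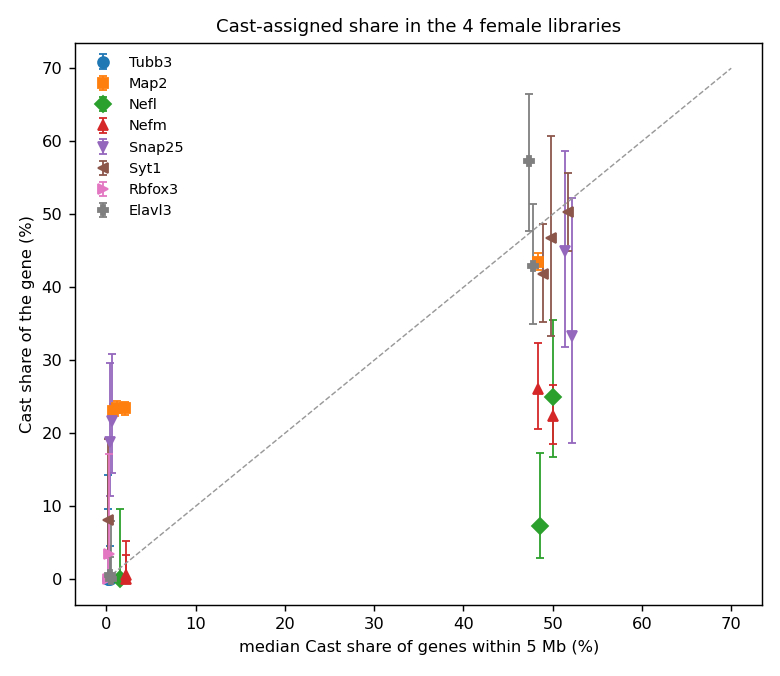
Share of allelic reads assigned to Cast for each gene and female library with at least 20 allelic reads (vertical axis, percent, bars are 95% Wilson intervals) against the median share of genes within 5 Mb in the same library (horizontal axis, percent); the dashed line marks equal shares. Map2 lies above the line at 23.1% to 23.5% where the region is near 0, and Nefm and Nefl lie below it at 7.27% to 26.1% where the region is near 50%.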

How the data were processed

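RNA was measured in 10 neural stem cell libraries. Per the submitters' processing notes the tools include Trim Galore 0.4.4, HISAT2 2.0.5, featureCounts, R 3.5.1 and edgeR 3.24.0, with the build GRCm38 (mm10). The authors deposited raw counts per gene, and for the 4 female libraries counts assigned to the 129 and Cast alleles; the strand setting and the allele assignment are not given in the sources used here. The labels' replicate numbers and litters were kept.

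Counts were filtered with filterByExpr and scaled by TMM. The main test was the quasi-likelihood F test of edgeR 4.0.16 under R 4.3.3, with 1 mean for each of the 4 groups, all 10 libraries, 6 residual degrees of freedom, Benjamini-Hochberg adjustment over 17110 genes and a threshold of 0.05. The standard error is the absolute log2 fold change over the square root of F. Log2 CPM used a prior count of 2. Permutation tests of correlations (two-sided) ran on the 7 libraries of the larger cluster; the plan had named all 10, and the change was made after the clusters were seen. A Cast share needed 20 allelic reads, intervals are Wilson at 95%, and the limit for a count of 0 is 3 counts. The test was tried on simulated counts with 200 changed genes. Genes named were the 9, the 10 most like the mean z-score, and Smchd1. On each list they were up to 3 called genes or otherwise the 2 of lowest unadjusted p over both sexes. Pdgfra and Sox10 were named outside this rule. List genes named for their pattern over libraries were chosen after their values were seen. The values of 1 listed transcription factor are not reported here. The members and lists were chosen with earlier results of these data known.

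Alternatives were RLE scaling, DESeq2 1.42.0, limma 3.58.1 voom with quality weights, other filters, only the groups compared, litter or replicate number as a covariate, each library left out and, added later, crossed female numbers and the fit without the 3 libraries that stood apart.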

Additional observations from a re-analysis of the deposited data

How the results depend on the processing

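No gene of the set was called in any of 78 alternative fits of the 4 contrasts. Of 23 log2 fold changes compared, 7 kept their sign in every fit run. The number of genes called over the whole table moved more. With 2 in females it was 44 with DESeq2, 8 with no filter, 1 with only the groups compared, 0 with litter as a covariate and 1 without the 3 libraries that stood apart. In males (4) it was 46 with DESeq2, 9 with voom, 14 with no filter, 1 with only the groups compared and 2 with litter. Over both sexes (14) it was 113 with DESeq2, 29 with voom, 33 with no filter, 9 with 10 counts in every library (a filter that Stmn2 fails), 3 with litter and 4 without the 3 libraries. The interaction (0) gave 2 with DESeq2 and 1 with litter.

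Leaving out 1 library gave 0 to 2 genes in females, 1 to 4 in males, 2 to 12 over both sexes and 0 to 1 for the interaction. The fold changes that turned sign in these fits ranged, in females, from -1.69 to 0.19 for Tubb3, -0.15 to 0.13 for Map2, -3.09 to 3.41 for Stmn2, -0.78 to 0.65 for Snap25, -2.18 to 1.52 for Syt1, -0.16 to 1.18 for Nefl, -0.23 to 1.87 for Nefm and -0.67 to 0.99 for Elavl3. In males the ranges were -1.96 to 0.51 for Syt1, -0.93 to 0.24 for Nefl and -1.51 to 0.45 for Nefm, each positive without male +/+ replicate 3. Syt1 over both sexes ranged from -1.79 to 0.23 and the interaction from -4.03 to 2.48 for Stmn2, -2.12 to -0.23 for Tubb3 and 0.11 to 2.25 for Rbfox3, the last 2 with no change of sign.

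Litter as a covariate turned, in females, Map2 to 0.011, Rbfox3 to -0.11 and Elavl3 to 0.15, and the Rbfox3 interaction to -0.84; voom turned Elavl3 in females to 0.083 and Tubb3 in males to -0.045. Without the 3 libraries, Syt1, Nefl and Nefm in males turned to 0.51, 0.24 and 0.45. The r of Stmn2 and Syt1 was -0.75 in the 6 males and -0.80 over all 10 libraries. That of Nefl and Nefm was 0.834 and 0.857, and 0.356 in the 7. The cause was not tested.

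Replicate numbers did not pair the libraries throughout. Deviations of same-numbered libraries correlated at -0.304 in females, where 2 libraries a group give the same value for both numbers. In males they correlated at -0.238, 0.416 and 0.0341 for replicates 1, 2 and 3. Both male libraries of replicate 2 came from litter 1 and both of replicate 3 from litter 3. With a replicate block 0 genes were called in females (836 before adjustment), 2 in males and 5 over both sexes, and Elavl3 in females turned to 0.14. With the female numbers crossed 0 were called in females and 6 over both sexes, and Elavl3 was again at 0.14.

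Stmn2 rested on 5 to 34 counts in 3 libraries of 30372514 to 44519020 total counts, among them the deepest, while each of the other 8 genes had at least 20 in every library. A minimum of 10 allelic reads gave 31 shares and one of 50 gave 19.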
